A study of Homo sapiens with 8 samples.

Results

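The 38 genes described here make up the core of the cell's defence against oxidants: the transcription factor NRF2 and its sensor, NRF2 target enzymes, the glutathione and thioredoxin systems, the peroxiredoxins, superoxide dismutases and catalase, enzymes that supply NADPH, and ferritin. They were listed by name as members of these pathways, and all 38 were found among the 18164 genes measured. RNA sequencing was done on 8 whole tumors that grew from cells of HCC1937, an established line of human triple-negative breast cancer, after injection of 1000000 cells into the inguinal mammary fat pad of NCG mice, which carry engineered Prkdc and Il2rg alleles on a NOD background and are severely immunodeficient. Treatment began when tumors measured 100 to 150 mm3. Of the 8 tumors, 4 came from mice given 500 mg/kg/day of nicotinamide mononucleotide (NMN), from which cells make NAD+, and 4 came from mice given vehicle. Both groups share the host strain and the tumor line, and the age and sex of the mice are not given in the sources used here. Whether every tumor had its own mouse is not stated in the labels, and p-values here measure only how these 8 samples vary.

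NRF2, encoded by NFE2L2, is held at a low level by KEAP1, an adaptor that presents it to a CUL3 ubiquitin ligase for destruction. Oxidants and electrophiles modify cysteines of KEAP1, NRF2 then accumulates, pairs with small MAF proteins and binds antioxidant response elements near its target genes. Several of the enzymes described here draw on NADPH or supply it, and NADPH is linked to NAD+ by phosphorylation. The title of the series names SIRT1 and p66Shc, a protein tied to mitochondrial oxidant production. The comparison therefore asks what NMN did to the transcripts of this defence in the tumor.

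Values are TPM, a relative transcript abundance already scaled for gene length and library size, so levels can be set against each other between genes. Each of the 8 libraries sums to 1000000 TPM, and the read depth behind a value is unknown. The libraries listed between 16451 and 16662 genes above 0. Keratin and epithelial genes of the tumor line were abundant in every library (9880 to 12175 summed TPM over 8 markers in the NMN tumors and 8942 to 18040 in the Vehicle tumors). Of the receptors that define the triple-negative class, PGR was at 0 TPM in every NMN tumor and at most 0.02 TPM in a Vehicle tumor, ESR1 lay between 3.37 and 6.00 TPM over the 8 tumors, and ERBB2 between 77.6 and 130.03 TPM. The libraries of NMN 1, NMN 2 and NMN 3 stood apart from the other 5 in respects that touch the results given next. Summed over 15 hypoxia response genes they held 4728, 6529 and 6619 TPM, against 2824 TPM in NMN 4 and 2341 to 3533 TPM in the Vehicle tumors. Summed over 20 skeletal muscle genes they held 60.8, 36.1 and 52.0 TPM, against 741.8 TPM in NMN 4 and 500.3 to 3018 TPM in the Vehicle tumors. Summed over 9 fibroblast markers they held 118, 128 and 163 TPM, against 233 TPM in NMN 4 and 188 to 286 TPM in the Vehicle tumors. In whole tumors, fewer cells of a type and less RNA per cell cannot be told apart. Host cells are mouse cells, and the values are those of human genes. The handling of mouse reads is not given, so whether marker values reflect host cells is unknown.

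As a group the 38 genes differed little between the NMN and Vehicle tumors. All 38 passed the filter on low values (at least 1 TPM in at least 4 of the 8 libraries), and none of them passed limma's test at an adjusted p under 0.05, where 0% of the 13358 genes tested were called (smallest adjusted p of the 38 genes 0.66, and 0.221 of all genes). At an unadjusted p under 0.05 stood 3 of the 38 genes, or 7.89%, against a background of 6.94% of all genes tested. These 3 were ME1, TXN and NQO1, all lower in the NMN tumors, where 2.15% of all genes tested were lower and 4.79% higher at that p. Means were higher in the NMN tumors for 19 genes and lower for 19. The median log2 fold change of NMN over Vehicle, on the scale of log2(TPM + 1), was -0.00049 over the 38 genes and 0.0040 over all genes tested. Fold changes ran from -0.53 to 0.49, and 20 of the 38 lay within 0.1 of 0. For 31 of the 38 genes the 95% interval of the fold change excluded a difference of 1.5-fold (0.58 on the log2 scale) in either direction. The 7 genes whose intervals reached past 1.5-fold were HMOX1, AKR1B10, GCLC, GPX2, GPX3, SOD3 and ME1, and those of HMOX1, AKR1B10 and GPX2 reached past 2-fold. In none of the 38 did the values of the 4 NMN tumors lie wholly above or wholly below those of the 4 Vehicle tumors, where 3.05% of all genes tested showed such a separation (2.08% above and 0.966% below).

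**Figure D1:**
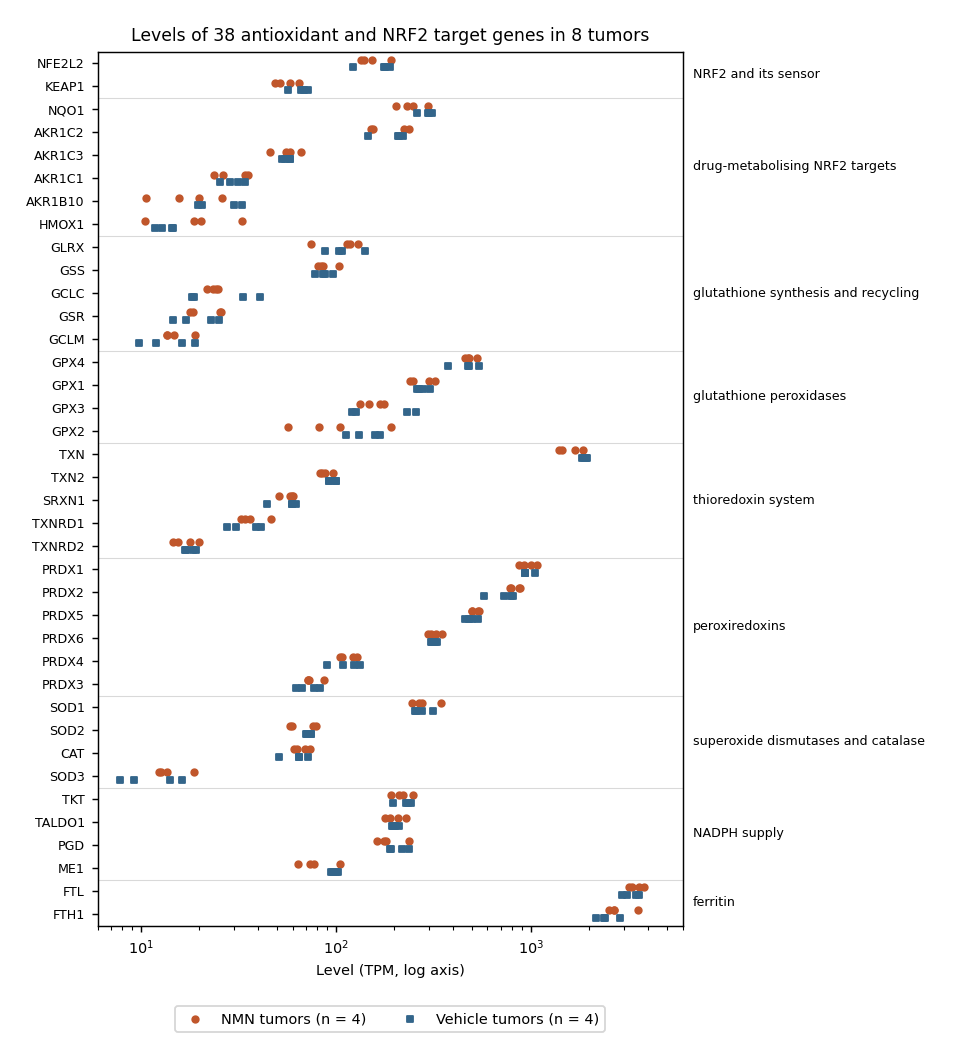
Level of each of the 38 genes (rows, grouped by role) in TPM on a log axis, with circles for the 4 NMN tumors and squares for the 4 Vehicle tumors. The levels run from about 10 TPM for SOD3, GCLM and HMOX1 to means of 2649 TPM for FTH1 and 3376 TPM for FTL, and the groups overlap in every row.

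Levels of the 38 genes spanned a wide range, from a mean of 13.1 TPM over the 8 tumors for SOD3 to 3376 TPM for FTL, and 20 of them averaged at least 100 TPM. The sum of the 38 genes was 1.31% to 1.49% of all TPM, depending on the tumor. FTL, FTH1 and TXN ranked 28, 43 and 90 by mean TPM among all genes of the table. The plot of levels by role shows that the order within a family was kept in both groups where levels were far apart: PRDX1 and PRDX2 lay above PRDX5, which lay above PRDX6, PRDX4 and PRDX3, in each of the 8 tumors. The spread between tumors of a group was moderate, with a median coefficient of variation over the 38 genes of 14.4% in the NMN tumors and 11.3% in the Vehicle tumors, beside 14.4% and 15.7% over all genes tested.

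**Figure D2:**
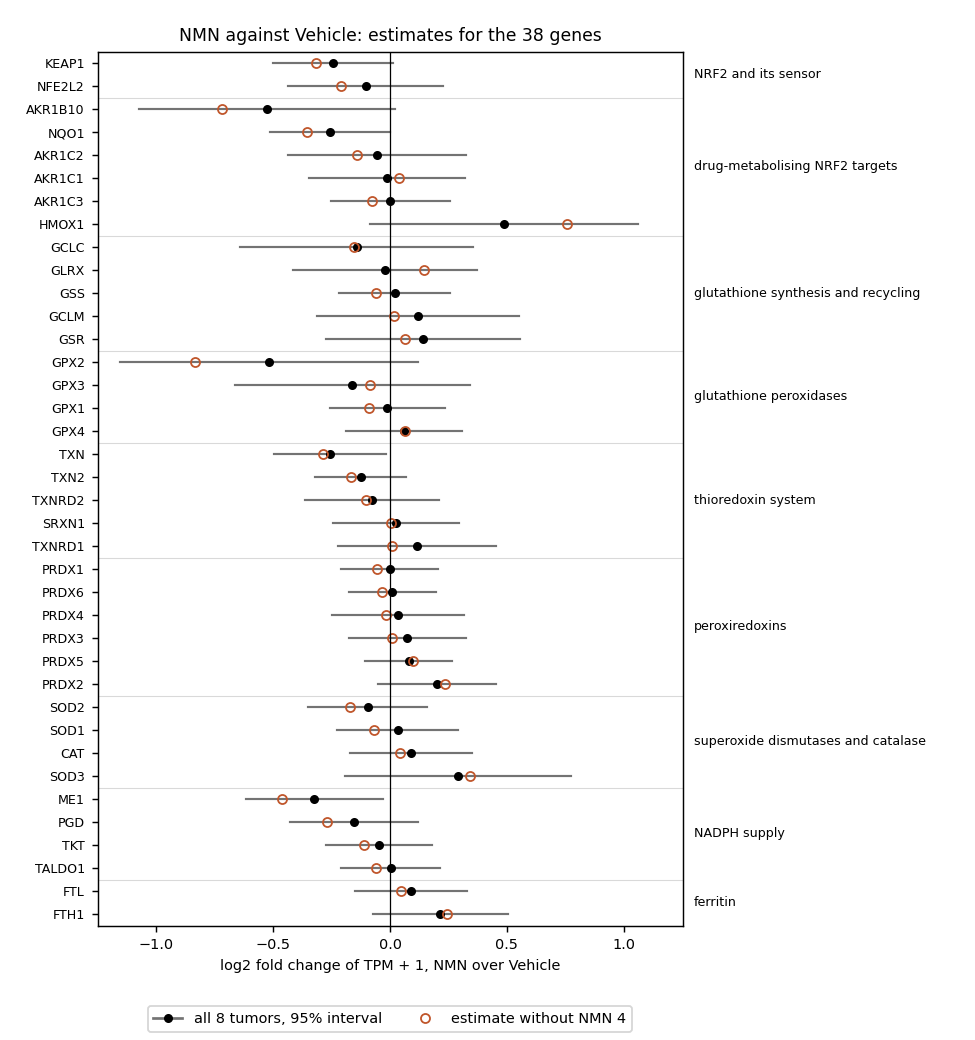
Log2 fold change of NMN over Vehicle for each gene, with filled points and lines for the estimate and 95% interval from all 8 tumors and open circles for the estimate without NMN 4. Estimates lie between -0.53 and 0.49, and the open circles of ME1, GPX2, AKR1B10 and HMOX1 lie farther from 0 than their filled points.

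The regulator itself had like levels in the groups. NFE2L2 (chromosome 2, 177227595 to 177392697, minus strand, GENCODE 29 on GRCh38) was at 153, 140, 135 and 191 TPM in NMN 1 to 4, against 190.0, 179, 123 and 176 TPM in Vehicle 1 to 4. The groups overlapped through most of their range, and the log2 fold change was -0.10 ± 0.15 (estimate ± standard error, adjusted p = 0.959). KEAP1, the sensor that restrains NRF2 (chromosome 19, 10486120 to 10503741, minus strand), was at 51.6, 48.6, 58.4 and 64.6 TPM in the NMN tumors, against 57.0, 66.3, 68.8 and 72.0 TPM in the Vehicle tumors. NMN 1 and NMN 2 lay below every Vehicle tumor, and the fold change of -0.24 ± 0.12 did not pass (adjusted p = 0.76). NRF2 is controlled mainly at the level of the protein, which transcript levels do not measure.

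Among the enzymes that handle quinones, heme and carbonyls, NQO1 was lower and HMOX1 higher in NMN 1 to 3, and neither passed. NQO1, a quinone reductase and a classical NRF2 target (chromosome 16, 69706996 to 69726951, minus strand), was at 250.1, 204, 231 and 298 TPM in NMN 1 to 4, against 261, 299.7, 296 and 311 TPM in Vehicle 1 to 4. NMN 1, NMN 2 and NMN 3 lay below all Vehicle tumors and NMN 4 lay among them. The log2 fold change was -0.26 ± 0.12 (adjusted p = 0.715), and permuting the group labels exactly (two-sided, on mean log2 values) gave p = 0.0857, where 4 tumors against 4 cannot go below 0.0286. A transcript annotated on the opposite strand overlaps 17.7% of the exonic bases of NQO1, and the labels do not say whether the libraries keep strand.

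HMOX1, which opens the heme ring and releases iron and carbon monoxide (chromosome 22, 35380361 to 35394214, plus strand), stood at 18.8, 33.2, 20.3 and 10.6 TPM in NMN 1 to 4, against 12.9, 14.7, 11.8 and 14.5 TPM in Vehicle 1 to 4. NMN 1, NMN 2 and NMN 3 lay above every Vehicle tumor, whereas NMN 4 was the lowest of the 8. The log2 fold change was 0.49 ± 0.26 (95% interval from -0.08 to 1.06, adjusted p = 0.807). The summed level of the hypoxia response genes was likewise above the Vehicle range in NMN 1 to 3, but inside it in NMN 4. Of the macrophage markers, CD68 was at 46.6, 63.7, 48.8 and 21.4 TPM in the NMN tumors and between 22.7 and 47.3 TPM in the Vehicle tumors. Summed over 8 macrophage markers the libraries held 48.2 to 91.1 TPM in the NMN tumors and 51.0 to 72.5 TPM in the Vehicle tumors, 5 of the 8 had the lower mean in the NMN tumors, and the defining markers ADGRE1 and MRC1 stayed under 1 TPM throughout. The part of hypoxia, of macrophages or of mouse RNA in the HMOX1 values was not tested.

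The aldo-keto reductases, which reduce carbonyls, steroids and prostaglandins, had close means in the NMN and Vehicle tumors apart from AKR1B10. AKR1C2 averaged 191 ± 44.5 TPM in the NMN tumors and 198 ± 34.2 TPM in the Vehicle tumors (mean ± SD, n = 4 each), AKR1C3 56.5 ± 8.26 and 56.1 ± 2.84 TPM, and AKR1C1 29.99 ± 5.85 and 30.04 ± 3.87 TPM, with log2 fold changes between -0.06 and 0.00, of which that of AKR1C3 changed sign with the scaling. These genes are near copies: 50.8% of the 50-base words of the longest AKR1C2 transcript also occur in AKR1C1 transcripts, so how reads were divided between them is uncertain. AKR1B10, which reduces retinal and aliphatic aldehydes, was at 19.9, 15.6, 10.7 and 26.1 TPM in NMN 1 to 4, against 20.6, 30.2, 19.6 and 32.9 TPM in Vehicle 1 to 4. NMN 2 and NMN 3 lay below all Vehicle tumors, and the fold change of -0.53 ± 0.25 was the lowest of the 38 genes (adjusted p = 0.752). It shares 11.6% of its 50-base words with AKR1B15.

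Glutathione synthesis genes varied more among Vehicle tumors than between the groups. GCLC, the catalytic subunit of the enzyme that makes gamma-glutamylcysteine, was at 23.5, 25.04, 21.9 and 24.3 TPM in NMN 1 to 4, against 18.4, 18.8, 33.3 and 40.8 TPM in Vehicle 1 to 4. All 4 NMN values fell in the gap between the low pair and the high pair of Vehicle tumors, and the coefficient of variation was 5.65% in the NMN tumors and 39.8% in the Vehicle tumors. GCLM, the modifier subunit of the same enzyme, was at 14.9, 13.7, 13.6 and 19.0 TPM in the NMN tumors, against 12.0, 9.84, 19.0 and 16.3 TPM in the Vehicle tumors. As for GCLC, Vehicle 1 and Vehicle 2 were lower than Vehicle 3 and Vehicle 4. TXNRD1 had the same split in the Vehicle tumors. The fold changes were -0.14 ± 0.23 for GCLC and 0.12 ± 0.20 for GCLM (adjusted p = 0.959 and 0.96). GSS, which adds glycine to complete glutathione, averaged 88.7 ± 10.5 TPM in the NMN tumors and 87.3 ± 7.60 TPM in the Vehicle tumors. GSR, which regenerates glutathione with NADPH, averaged 21.9 ± 4.33 and 19.98 ± 4.88 TPM, and the glutaredoxin GLRX 109 ± 24.0 and 110 ± 22.6 TPM, in the NMN and Vehicle tumors. Fold changes of these 3 genes ran from -0.02 to 0.14.

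The glutathione peroxidases reduce hydrogen peroxide and lipid peroxides. GPX4, which acts on lipid hydroperoxides in membranes and holds back ferroptosis, was at 458, 478, 528 and 484 TPM in NMN 1 to 4, against 477, 482, 544 and 378 TPM in Vehicle 1 to 4. Its fold change was 0.06 ± 0.11 (interval from -0.19 to 0.31, adjusted p = 0.967). GPX1, the cytosolic enzyme, averaged 279 ± 41.0 TPM in the NMN tumors and 279 ± 19.9 TPM in the Vehicle tumors, and 20.3% of its 50-base words recur in the pseudogene GPX1P1. GPX2, the epithelial form known from the gut and a known NRF2 target (chromosome 14, 64939152 to 64942905, minus strand), was at 81.9, 105, 57.1 and 191 TPM in NMN 1 to 4, against 169, 132, 159.6 and 113 TPM in Vehicle 1 to 4. NMN 1, NMN 2 and NMN 3 were the lowest of the 8 tumors and NMN 4 the highest. With that spread the fold change of -0.52 ± 0.29 did not pass (adjusted p = 0.828). GPX3, the secreted form, was at 169, 148, 177 and 133 TPM in the NMN tumors, against 122, 233, 127 and 257 TPM in the Vehicle tumors. All NMN values lay inside the Vehicle range. The summed level of 7 adipocyte markers, a cell type that secretes GPX3, was 118, 218, 31.3 and 16.9 TPM in the NMN tumors, against 21.6, 11.8, 101 and 34.3 TPM in the Vehicle tumors, with the defining markers ADIPOQ and LEP under 1 TPM in every library. Of these sums FABP4 held 109, 212, 23.7 and 8.07 TPM in the NMN tumors, and 13.6, 3.19, 92.2 and 26.9 TPM in the Vehicle tumors. Of the 7 markers 3 (CIDEC, LPL and PLIN4) had the lower mean in the NMN tumors. The part of adipocytes in the GPX3 values was not tested.

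In the thioredoxin system, TXN was lower in the NMN tumors but did not pass. TXN, the small dithiol protein that reduces peroxiredoxins and ribonucleotide reductase (chromosome 9, 110243811 to 110256640, minus strand), was at 1388, 1856, 1444 and 1690 TPM in NMN 1 to 4, against 1943, 1881, 1822 and 1926 TPM in Vehicle 1 to 4. NMN 1, NMN 3 and NMN 4 lay below all Vehicle tumors, and NMN 2 lay just above the lowest of them. The coefficient of variation was 13.7% in the NMN tumors and 2.85% in the Vehicle tumors. The fold change was -0.26 ± 0.11 (interval from -0.49 to -0.02, adjusted p = 0.675), and the exact permutation test gave p = 0.0571, the smallest of the 38 genes. Of the 3 genes with an unadjusted p under 0.05, TXN alone had NMN 4 below the Vehicle range. TXN2, the mitochondrial thioredoxin, was at 88.6, 85.2, 82.9 and 96.7 TPM in the NMN tumors, against 100.2, 91.9, 100.8 and 92.5 TPM in the Vehicle tumors, a fold change of -0.13 ± 0.09 (adjusted p = 0.893).

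The selenoenzymes that recharge thioredoxin had close means in both groups. TXNRD1, cytosolic and an NRF2 target, averaged 37.5 ± 6.16 TPM in the NMN tumors and 34.7 ± 6.58 TPM in the Vehicle tumors, and the mitochondrial TXNRD2 17.02 ± 2.42 and 17.9 ± 1.16 TPM. SRXN1, which rescues over-oxidised peroxiredoxins, was at 60.1, 58.0, 50.9 and 59.8 TPM in the NMN tumors, against 44.3, 62.5, 59.5 and 59.7 TPM in the Vehicle tumors. A second annotated gene on the same strand covers 84.95% of its exonic bases, so its value is uncertain.

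The 6 peroxiredoxins, which remove hydrogen peroxide through a reactive cysteine, had close levels in the NMN and Vehicle tumors. Summed over the family, NMN tumors held 2834 ± 105 TPM and Vehicle tumors 2693 ± 127 TPM (n = 4 each). PRDX1, the main cytosolic form and an NRF2 target, averaged 967 ± 89.2 TPM in the NMN tumors and 967 ± 56.5 TPM in the Vehicle tumors. PRDX2, also cytosolic, was at 795, 871, 882 and 778 TPM in NMN 1 to 4, against 789, 733, 810.5 and 578 TPM in Vehicle 1 to 4. Its fold change of 0.20 ± 0.12 was the highest of the family and did not pass (adjusted p = 0.832), and Vehicle 4 was the lowest tumor. PRDX2 is also abundant in red cells, and 7 erythroid markers summed to 0.69 to 6.27 TPM in the NMN tumors and 3.79 to 6.67 TPM in the Vehicle tumors, with HBB, SLC4A1 and EPB42 under 1 TPM in every library. These are values of human genes, and the red cells of the host are mouse cells. With the handling of mouse reads unknown, whether these values reflect red cell content is unknown. The part of red cells in the PRDX2 values was not tested. PRDX5 averaged 522 ± 23.7 and 494 ± 33.0 TPM, PRDX6 321 ± 23.7 and 318 ± 11.1 TPM, PRDX4 of the endoplasmic reticulum 116 ± 11.7 and 114 ± 19.0 TPM, and the mitochondrial PRDX3 76.0 ± 7.23 and 72.3 ± 9.14 TPM, in the NMN and Vehicle tumors. The intervals of all 6 fold changes lay between -0.25 and 0.45.

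Superoxide dismutases turn superoxide into hydrogen peroxide, and catalase breaks it down in peroxisomes. SOD1, the copper and zinc enzyme of the cytosol, averaged 284 ± 44.1 TPM in the NMN tumors and 276 ± 27.3 TPM in the Vehicle tumors. SOD2, the manganese enzyme of mitochondria and a target of FOXO factors, was at 76.3, 59.5, 58.5 and 79.3 TPM in the NMN tumors, against 74.3, 70.2, 70.8 and 74.6 TPM in the Vehicle tumors. NMN tumors lay on both sides of the narrow Vehicle range, 2 above it and 2 below it, and the fold change was -0.10 ± 0.12 (adjusted p = 0.957). CAT averaged 66.8 ± 5.81 TPM in the NMN tumors and 63.1 ± 8.79 TPM in the Vehicle tumors. SOD3, secreted into the matrix and the least abundant of the 38 genes, was at 12.4, 13.6, 18.8 and 12.6 TPM in the NMN tumors, against 14.1, 7.83, 16.2 and 9.27 TPM in the Vehicle tumors, a fold change of 0.29 ± 0.22 (adjusted p = 0.905). The summed level of 9 markers of fibroblasts, cells that secrete SOD3, was 118, 128, 163 and 233 TPM in NMN 1 to 4, against 188 to 286 TPM in the Vehicle tumors. NMN 1 to 3 thus lay below the Vehicle range and NMN 4 inside it. The mean was lower in the NMN tumors for 7 of the 9, and DCN, LUM and THY1 were at or under 0.05 TPM in every library. The part of fibroblasts in the SOD3 values was not tested.

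Of the genes that supply NADPH, ME1 had the smallest p-value of the 38 genes and did not pass. ME1, cytosolic malic enzyme, makes NADPH from malate (chromosome 6, 83210389 to 83431071, minus strand). It was at 73.5, 77.3, 63.9 and 104.9 TPM in NMN 1 to 4, against 94.97, 100.3, 96.6 and 103 TPM in Vehicle 1 to 4. NMN 1, NMN 2 and NMN 3 lay below all Vehicle tumors, which were close together, and NMN 4 lay above all of them. The fold change was -0.32 ± 0.13 (interval from -0.62 to -0.03, adjusted p = 0.66, exact permutation p = 0.143). PGD, the second NADPH-forming enzyme of the pentose phosphate pathway (chromosome 1, 10398592 to 10420144, plus strand), had the same order: 181, 177, 162 and 237 TPM in NMN 1 to 4, against 219.9, 192, 236 and 190.2 TPM in Vehicle 1 to 4, a fold change of -0.15 ± 0.13 (adjusted p = 0.92). The transaldolase TALDO1 averaged 202 ± 22.7 TPM in the NMN tumors and 201 ± 7.91 TPM in the Vehicle tumors, and the transketolase TKT 218 ± 22.9 and 226 ± 20.01 TPM. Both belong to the branch that returns pentose sugars to glycolysis.

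The ferritin chains, which store iron in a shell and so keep it from generating radicals, were the most abundant of the 38 transcripts. FTH1, the chain with ferroxidase activity, was at 2671, 2526, 3550 and 2664 TPM in NMN 1 to 4, against 2171, 2361, 2391 and 2861 TPM in Vehicle 1 to 4. NMN 3 was the highest tumor and Vehicle 4 lay above the other NMN tumors, and the fold change was 0.22 ± 0.13 (adjusted p = 0.86). FTL, the light chain, was at 3189, 3317, 3611 and 3804 TPM in the NMN tumors, against 3102, 3470, 2926 and 3587 TPM in the Vehicle tumors, a fold change of 0.09 ± 0.11 (adjusted p = 0.957). Ferritin is also set by iron through translation, which these values do not show. Exons of BEST1 on the opposite strand cover 62.4% of the FTH1 exonic bases, and 40.4% of FTH1 50-base words and 18.3% of FTL words recur in other genes. The largest shares were with the pseudogenes FTH1P10 (20.8% of FTH1 words) and FTLP3 (18.3% of FTL words).

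**Figure D3:**
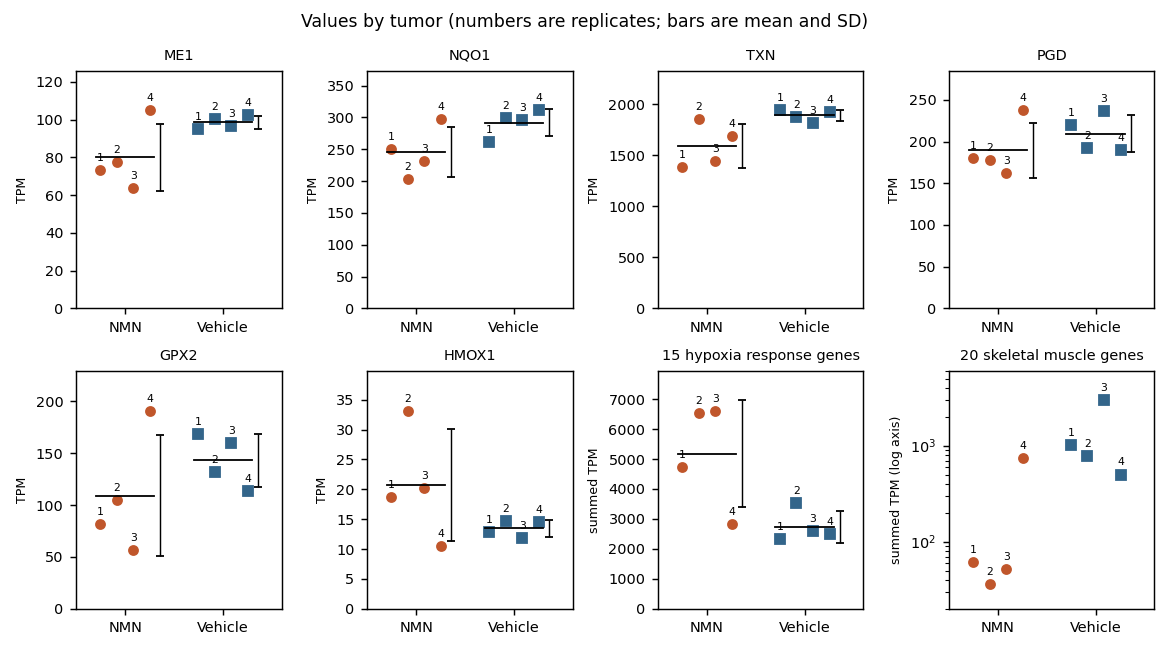
Values by tumor for 6 genes in TPM, and summed TPM of the hypoxia and muscle lists, with NMN tumors at the left and Vehicle tumors at the right of each panel, numbers for the replicate, and mean and SD on the linear axes. For ME1, PGD and GPX2 tumors NMN 1 to 3 lie below all Vehicle tumors and NMN 4 above them, and for HMOX1 the order is turned round.

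Much of what separated NMN from Vehicle tumors in these genes lay in 3 of the 4 NMN tumors. NMN 1, NMN 2 and NMN 3 were all below the Vehicle range in 5 of the 38 genes, or 13.2% (NQO1, GPX2, TXN2, PGD and ME1), against 6.15% of all genes tested, and all above it in 1, or 2.63% (HMOX1), against 3.84%. NMN 4 exceeded all Vehicle tumors in 20 of the 38 genes, or 52.6%, against 32.3% of all genes tested, was below them in 3 (HMOX1, GLRX and TXN) and within their range in 15. The summed TPM of the 38 genes was 13149, 13730, 14792 and 14920 in NMN 1 to 4, against 13396, 13968, 13623 and 14421 in Vehicle 1 to 4. Without NMN 4, limma called 54 of all genes, or 0.404%, and none of the 38 (smallest adjusted p 0.099, for ME1). In that fit 8 of the 38 genes, or 21.1%, stood at an unadjusted p under 0.05, against 9.55% of all genes. Lower in the NMN tumors were 7 of them (KEAP1, NQO1, AKR1B10, GPX2, TXN, PGD and ME1), where 4.88% of all genes tested were lower at that p, and HMOX1 was higher, where 4.67% were. The fold changes without NMN 4 were -0.46 for ME1, -0.35 for NQO1, -0.83 for GPX2, -0.72 for AKR1B10, -0.27 for PGD and 0.76 for HMOX1. When each of the 8 tumors was left out in turn, the estimates closest to 0 came without NMN 3 or without NMN 2, depending on the gene. Without NMN 3 they were -0.22 for ME1, -0.26 for GPX2, -0.31 for AKR1B10 and -0.085 for PGD. Without NMN 2 they were -0.17 for NQO1 and 0.23 for HMOX1. The count of the 38 genes at an unadjusted p under 0.05 was likewise 0 without NMN 1, NMN 3 or Vehicle 2, 1 without NMN 2 or Vehicle 4, 2 without Vehicle 3 and 4 without Vehicle 1. What sets NMN 4 apart was not tested. In the summed levels of the hypoxia, muscle and fibroblast genes NMN 4 lay inside the Vehicle range and NMN 1 to 3 outside it. The same held for NQO1 and TXN2, but NMN 4 lay above the Vehicle range for ME1, PGD and GPX2 and below it for HMOX1. Single genes of the summed lists differed from their sums. BNIP3, DDIT4 and P4HA1 of the hypoxia list were above all Vehicle tumors in NMN 4 too. EGLN3 was below them in NMN 4, and MYH4 of the muscle list was below them in every NMN tumor.

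**Figure D4:**
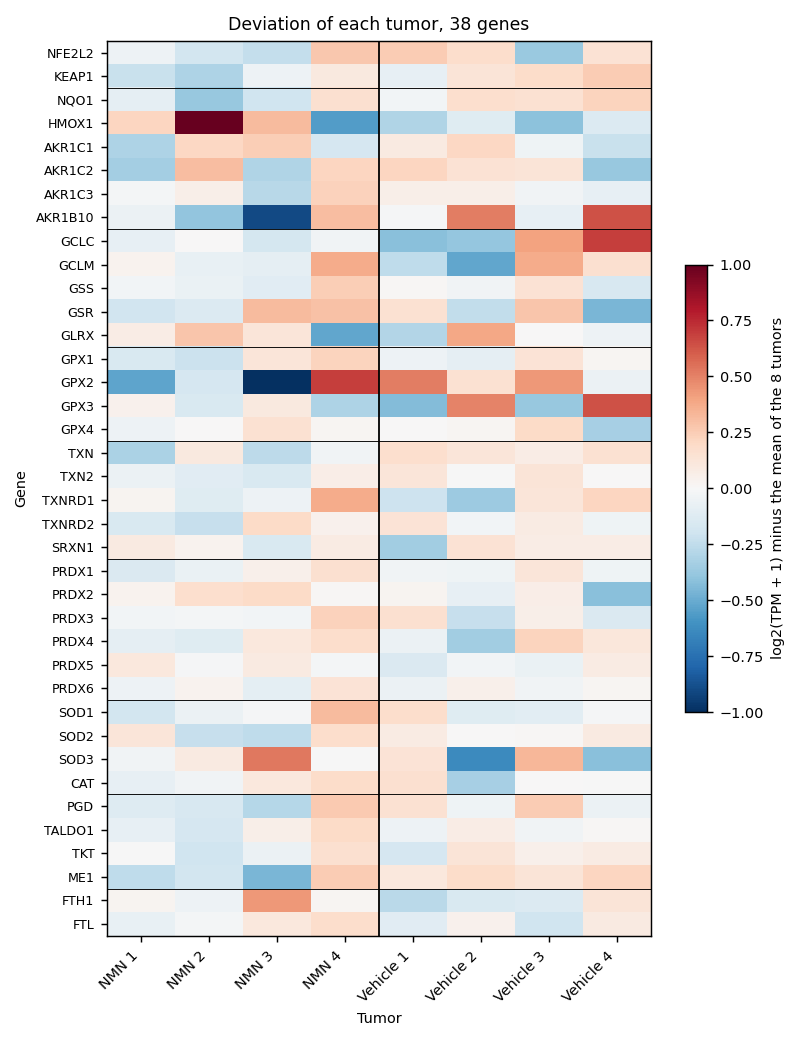
Deviation of each tumor from the mean of the 8 tumors in log2(TPM + 1), for each of the 38 genes in rows grouped by role, with NMN tumors at the left; the colour scale ends at 1 in both directions. NMN 4 is high in most rows where NMN 1 to 3 are low, such as GPX2, PGD and ME1, and low for HMOX1.

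The promoters of ME1, PGD and GPX2 are shown because these genes had the same order of tumors. They were thus chosen by their values. The share of all genes with this order was not computed, and the epithelial marker CDH1 and the NRF2 target CBR1 had it too. ME1, PGD and GPX2 each also hold the letters of an antioxidant response element, TGACNNNGC, in the 250 bases before the RefSeq start. Whether the element goes with the order was not tested. By the GENCODE 29 positions PGD and GPX2 begin farther upstream, so their elements lie inside the annotated gene. That of ME1 lies before the gene by both sources. The sequences are RefSeq's, on GRCh38.p14, each read 5′ to 3′ on the strand of the gene, with the element in capitals.
ME1 promoter, chr6:83431052-83431301, minus strand: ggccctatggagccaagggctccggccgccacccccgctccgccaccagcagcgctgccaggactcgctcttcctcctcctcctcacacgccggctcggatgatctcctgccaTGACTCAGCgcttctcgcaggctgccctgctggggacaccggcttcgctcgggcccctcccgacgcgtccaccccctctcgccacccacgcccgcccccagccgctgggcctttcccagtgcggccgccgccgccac
PGD promoter, chr1:10398814-10399063, plus strand: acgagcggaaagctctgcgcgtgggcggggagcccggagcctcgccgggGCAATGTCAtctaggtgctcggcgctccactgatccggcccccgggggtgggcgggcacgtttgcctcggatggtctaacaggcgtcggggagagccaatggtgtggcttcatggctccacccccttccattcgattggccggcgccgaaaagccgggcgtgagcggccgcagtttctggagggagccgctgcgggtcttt
GPX2 promoter, chr14:64942746-64942995, minus strand: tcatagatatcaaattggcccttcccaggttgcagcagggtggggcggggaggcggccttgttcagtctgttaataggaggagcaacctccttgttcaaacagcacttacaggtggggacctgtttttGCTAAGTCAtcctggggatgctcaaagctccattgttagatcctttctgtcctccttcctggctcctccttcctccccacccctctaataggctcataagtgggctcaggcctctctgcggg

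Promoters were at hand for 29 of the 38 genes, and on either strand 5 of the 29, or 17.2%, held TGACNNNGC, against 10.9% of 35116 promoters of the same length. The remaining 2 were GCLM and TXNRD1, whose fold changes were 0.12 and 0.12. All 5 elements are set side by side here, each read in the direction of the motif with 10 bases on either side and its fixed letters in capitals.
ME1 site: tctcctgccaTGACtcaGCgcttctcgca
PGD site: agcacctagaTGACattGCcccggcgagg
GPX2 site: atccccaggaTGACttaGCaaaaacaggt
GCLM site: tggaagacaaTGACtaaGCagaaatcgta
TXNRD1 site: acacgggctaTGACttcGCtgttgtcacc

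The element of ME1, from 137 to 129 bases before the start, also holds TGANTCA, the site of AP-1 factors, which was in 6.57% of all promoters and in 1 of the 29. NQO1, TXN and KEAP1 held no TGACNNNGC in this window, which says nothing of elements farther away. A match of letters does not show that a factor binds there.

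Other genes of the pathway were read from lists of partners, targets and neighbours, and none passed the test. Of 13 tested NRF2 partners and regulators, 2 stood at an unadjusted p under 0.05, both higher in the NMN tumors, where 4.79% of all genes tested were higher at that p. BACH1, a heme-sensing repressor that competes with NRF2 for the same elements, was at 18.0, 21.4, 17.8 and 16.8 TPM in NMN 1 to 4, against 13.1, 13.1, 14.2 and 13.9 TPM in Vehicle 1 to 4. Every NMN tumor exceeded every Vehicle tumor, the fold change was 0.42 ± 0.12 (adjusted p = 0.365), and the exact permutation test gave p = 0.0286, the smallest it can give. Of all genes tested, 2.08% were wholly higher in this way. MAFF, a small MAF protein that can pair with NRF2 or BACH1, was at 32.5, 34.6, 35.7 and 21.4 TPM in the NMN tumors, against 15.5, 24.3, 18.6 and 18.1 TPM in the Vehicle tumors, a fold change of 0.66 ± 0.18 (adjusted p = 0.348). MAFK averaged 24.4 ± 3.39 and 20.4 ± 3.14 TPM in the NMN and Vehicle tumors.

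Of 22 further NRF2 targets tested, 6 had the higher and 16 the lower mean in the NMN tumors, with a median fold change of -0.15 beside 0.0040 over all genes, and 2 stood at an unadjusted p under 0.05, both lower, where 2.15% of all genes tested were lower at that p. ALDH3A1, an aldehyde dehydrogenase, was at 14.6, 15.4, 16.0 and 18.4 TPM in NMN 1 to 4, against 25.3, 25.8, 26.3 and 25.01 TPM in Vehicle 1 to 4. No NMN tumor reached the lowest Vehicle tumor, NMN 4 included, a separation seen in 0.966% of all genes tested, and the fold change was -0.64 ± 0.11 (adjusted p = 0.221, or 0.0284 without NMN 4). EPHX1, an epoxide hydrolase, averaged 408 ± 71.4 TPM in the NMN tumors and 518 ± 87.7 TPM in the Vehicle tumors, a fold change of -0.34 ± 0.15 (adjusted p = 0.687). SLC48A1, a heme transporter, averaged 25.5 ± 3.36 and 36.8 ± 14.2 TPM.

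Of 20 further thiol redox enzymes 10 had the higher and 10 the lower mean, and at an unadjusted p under 0.05 stood 0. The lowest p-values were those of NXN (nucleoredoxin), the methionine sulfoxide reductase MSRB3 and the glutaredoxin GLRX2, with fold changes of -0.34 ± 0.16, -0.41 ± 0.22 and -0.23 ± 0.14. Of 7 genes that make selenocysteine and insert it into GPX and TXNRD proteins, 5 had the lower mean, with PSTK, EEFSEC and SEPHS2 at -0.33 ± 0.16, -0.15 ± 0.16 and -0.10 ± 0.09, and 0 stood at that p.

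Of 16 other genes of NADPH supply, 8 had the higher and 8 the lower mean, and 1 stood at an unadjusted p under 0.05, close to the share of 6.94% over all genes tested. This was IDH2, the mitochondrial NADPH-forming isocitrate dehydrogenase, at 290.2, 296, 306 and 297 TPM in NMN 1 to 4, against 250.2, 285, 272 and 228 TPM in Vehicle 1 to 4. Every NMN tumor exceeded every Vehicle tumor, as in 2.08% of all genes tested, with a fold change of 0.20 ± 0.09 (adjusted p = 0.695). RPIA and PGLS, of the pentose phosphate pathway, were at 0.22 ± 0.13 and -0.13 ± 0.09.

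Of 12 iron handling genes 7 averaged higher and 5 lower, and 1 stood at an unadjusted p under 0.05, close to the share of 6.94% over all genes tested. SLC11A2, an importer of ferrous iron, was at 47.4, 43.9, 53.3 and 46.1 TPM in NMN 1 to 4, against 37.4, 32.9, 43.0 and 32.2 TPM in Vehicle 1 to 4, a fold change of 0.39 ± 0.12 with no overlap between the groups, where 3.05% of all genes had none (adjusted p = 0.405). FBXL5, an iron-sensing ubiquitin ligase subunit, and HMOX2, the constitutive heme oxygenase, were at -0.22 ± 0.12 and -0.23 ± 0.13. The heavy ferritin chain and SLC11A2 thus had higher means in the NMN tumors, and neither passed.

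Of 11 tested NADPH oxidase and other oxidant-producing genes 3 averaged higher and 8 lower, and 0 stood at an unadjusted p under 0.05. SHC1, which encodes p66Shc among other isoforms, was at 56.6, 51.2, 52.0 and 62.2 TPM in NMN 1 to 4, against 53.6, 63.9, 70.9 and 69.6 TPM in Vehicle 1 to 4 (fold change -0.21 ± 0.11, adjusted p = 0.819). The oxidase subunits NCF4 and CYBB were at -0.31 ± 0.15 and -0.28 ± 0.17, with means under 5 TPM in both groups. Of 8 FOXO, sirtuin and coactivator genes that act on SOD2 and CAT, 7 had the higher mean and 0 stood at that p: SIRT2, FOXO4 and PPARGC1A had fold changes of 0.16 ± 0.09, 0.25 ± 0.18 and 0.45 ± 0.24, and SIRT1 one of 0.08 ± 0.15 (adjusted p = 0.967).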

How the data were processed

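TPM per gene in 8 libraries were deposited by the authors in 1 table, with the unit per the file headers. HISAT2 2.1.0, Bowtie2 2.2.5 and RSEM 1.2.8 with the build GRCh38.p13 are named per the submitters' processing notes, without their roles. The sources used here do not give the handling of mouse reads. RNA with a RIN above 8.5 was used, per the labels' protocols.

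Genes with at least 1 TPM in at least 4 libraries (13358 genes) were tested on log2(TPM + 1) with limma 3.58.1 (R 4.3.3), variances trended by mean, group as the only term, two-sided, with Benjamini-Hochberg adjustment over all of them at 0.05. Fold changes on this scale understate changes of low genes. Single genes were also compared by exact permutation over 70 splits (Python 3.11.15). The code was tested on simulated data. The 38 genes and all lists were chosen with earlier results of these data known. The text names all 38 genes and, of each further list, the 3 with the smallest p-values and genes needed to describe it. SIRT1, CBR1 and the markers CD68, FABP4 and CDH1 were chosen after their values were seen.

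No 2 libraries were alike: at most 1.55% of genes had identical TPM in any of 28 pairs. Positions, exon overlaps and shared 50-base words are from GENCODE 29, and promoters from RefSeq on GRCh38.p14. The starts of 26 of 29 promoters were found in GENCODE transcripts. Motifs were searched on both strands in the 250 bases before the RefSeq start. Some genes of the further lists are not reported here. Other settings are given in the closing section.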

Additional observations from a re-analysis of the deposited data

Results flagged for a closer look

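In 5 of 124 groups of 4 tumors (62 genes in NMN and in the Vehicle tumors) a single tumor lay far from the other 3, with a gap to the nearest that exceeded the 95% critical value of Dixon as a share of the range of the group. Chance gives about 1 in 20 such groups, which is more than were found. PRDX3 was at 86.8 TPM in NMN 4, against 72.2 to 72.6 TPM in the other NMN tumors. FTH1 was at 3550 TPM in NMN 3, against 2526 to 2671 TPM in the other NMN tumors. PRDX1 was at 1051 TPM in Vehicle 3, against 937 to 939 TPM in the other Vehicle tumors. AKR1C2 was at 147 TPM in Vehicle 4, against 209.6 to 222 TPM in the other Vehicle tumors. SRXN1 was at 44.3 TPM in Vehicle 1, against 59.5 to 62.5 TPM in the other Vehicle tumors.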

How the results depend on the processing

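None of the 38 genes passed limma's adjusted p under any setting run. The smallest adjusted p was 0.099 (ME1 without NMN 4). Over all genes the count called was 0 as reported (927 at an unadjusted p under 0.05), 54 with library weights, 2 with a replicate block, and 0 to 54 when 1 tumor was left out in turn, with 54 without NMN 4 and 1 without Vehicle 3. The labels do not say whether the replicate numbers pair the tumors. Correlations of same-numbered deviations were 0.026, 0.00094, -0.032 and -0.12, against -0.28 to 0.19 for tumors of different numbers. They cannot show whether tumors were paired. With the block no member was called. The median log2 fold change of the 38 genes ran from -0.060 to 0.030 when 1 tumor was left out. ALDH3A1 passed with library weights (adjusted p = 0.046) and without NMN 4. Signs changed for the genes named next, none of which had passed, and the cause was not tested. With library weights the log2 fold changes were -0.048 for AKR1C3, 0.063 for GLRX, 0.043 for GPX3, -0.0055 for GPX4, -0.027 for GSR, -0.037 for GSS, -0.013 for PRDX4, -0.018 for PRDX6, -0.072 for SOD1 and -0.018 for TALDO1. With median-of-ratios scaling they were -0.0074 for AKR1C3 and -0.0054 for TALDO1, and with quantile normalization -0.0059 for AKR1C3, -0.0035 for PRDX6 and -0.0021 for TALDO1. Leaving out 1 tumor in turn gave log2 fold changes from the lowest to the highest of AKR1C1 -0.099 to 0.088, AKR1C2 -0.19 to 0.047, AKR1C3 -0.077 to 0.093, CAT -0.0080 to 0.16, GCLC -0.31 to 0.063, GCLM -0.033 to 0.26, GLRX -0.12 to 0.15, GPX1 -0.088 to 0.058, GPX3 -0.33 to 0.025, GPX4 -0.040 to 0.13, GSS -0.059 to 0.070, PRDX1 -0.055 to 0.046, PRDX4 -0.074 to 0.11, PRDX6 -0.035 to 0.045, SOD1 -0.068 to 0.099, SRXN1 -0.084 to 0.081, TALDO1 -0.062 to 0.060 and TKT -0.11 to 0.0094. TPM keep no read depth, so no counting error can be given.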
